A study of Mus musculus with 7 samples.

Results

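Costimulatory molecules carry the second signal that a T cell needs, beside antigen, to divide, survive and make cytokines. The 8 genes described here encode 5 receptors of the tumour necrosis factor (TNF) receptor family (OX40, 4-1BB, GITR, TNFR2 and CD27), 2 receptors of the immunoglobulin family (ICOS and CD28) and 1 ligand of the TNF family (CD40 ligand). They were taken by gene name from the deposited table of counts. All 8 were among its 15588 genes, and all 8 passed the filter on low counts with 12929 genes in total. RNA came from tumour-infiltrating CD4 T cells (helper T lymphocytes) of mice that carried hepatocellular carcinoma transplanted into the liver. There were 5 libraries labelled day 7 and 2 libraries labelled day 0 of the model. No genotype, strain, age or tumour cell line is named in the labels, and what was sampled as tumour at day 0 is not stated. Whether each library is a different animal is not stated either, so the p-values reflect the spread between these libraries, which may be technical.

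CD28 is present on resting T cells and binds CD80 and CD86 on antigen-presenting cells, and ICOS, its inducible relative, binds ICOS ligand. OX40 and 4-1BB are largely absent from resting T cells, appear after antigen recognition, and signal through TRAF adaptor proteins to the transcription factor NF-kappaB. GITR and TNFR2 use the same adaptors and are abundant on regulatory T cells, the suppressive CD4 subset, which also carries OX40, 4-1BB and ICOS. CD27 marks naive and early memory T cells, and CD40 ligand is the molecule by which activated CD4 T cells stimulate B cells, macrophages and dendritic cells.

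Total counts lay between 21910818 and 26955367 in the day 7 libraries and were 24351820 and 28333855 in the day 0 libraries. Each library is called by the digit that ends its column name, which gives day 7 libraries 1, 2, 3, 5 and 6 together with day 0 libraries 2 and 3, and these digits are not the replicate numbers of the titles. Levels are in CPM, counts scaled to a common library size, and per-library values follow the order of these digits. The CD4 T cell markers Cd4, Cd3d, Cd3e, Cd3g, Zbtb7b and Lat had counts in every library, with a summed level of 2547 to 3210 CPM at day 7 and of 2421 and 2676 CPM at day 0. Cd8a and Cd8b1, which mark CD8 T cells, summed to 204 and 177 CPM in day 7 libraries 5 and 6, to 11.1 to 18.3 CPM in the other day 7 libraries, and to 3.61 and 2.29 CPM at day 0. The 6 macrophage and monocyte markers summed to 236 and 132 CPM in day 7 libraries 5 and 6, to 11.6 to 27.9 CPM in the other day 7 libraries, and to 5.50 and 13.2 CPM at day 0, where Csf1r was at 0 in both libraries. In bulk RNA, more cells of a type and more transcript per cell cannot be told apart.

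The levels of OX40 and 4-1BB transcripts were higher in the day 7 libraries than in the day 0 libraries. None of the other 6 genes passed the test. Tnfrsf4, which encodes OX40, averaged 33.6 ± 9.72 CPM at day 7, against 1.54 ± 1.88 CPM at day 0 (SD, n = 5 and 2). Tnfrsf9, which encodes 4-1BB, averaged 64.5 ± 8.31 CPM at day 7, against 11.3 ± 2.17 CPM at day 0 (SD, n = 5 and 2). Cd40lg, the gene of CD40 ligand, stood lower in every day 7 library than in both day 0 libraries, without passing the test. Genes were tested day 7 against day 0 with edgeR's quasi-likelihood test over all 12929 genes, and a gene was called at a Benjamini-Hochberg adjusted p below 0.05. Of the 8 genes 2 rose and 0 fell. At an unadjusted p below 0.05 there were 2 higher and 1 lower, DESeq2 called 2 higher and 1 lower, and limma-voom called 1 higher and 0 lower. Across all genes tested the test called 1.07% higher and 0.472% lower, and an unadjusted p below 0.05 was reached by 6.29% that were higher and 3.78% that were lower. DESeq2 called 5.08% of all genes with an adjusted p higher and 1.54% lower, and limma-voom 0.240% higher and 0.495% lower. The counts for related gene lists given further on have these same shares as their background. All day 7 values stood above all day 0 values for 2 of the 8 genes and below them for 1. Among all genes tested 15.3% had groups that did not overlap, 7.53% above and 7.77% below. The median log2 change was 0.20 over the 8 genes and 0.04 over all genes tested.

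**Figure D1:**
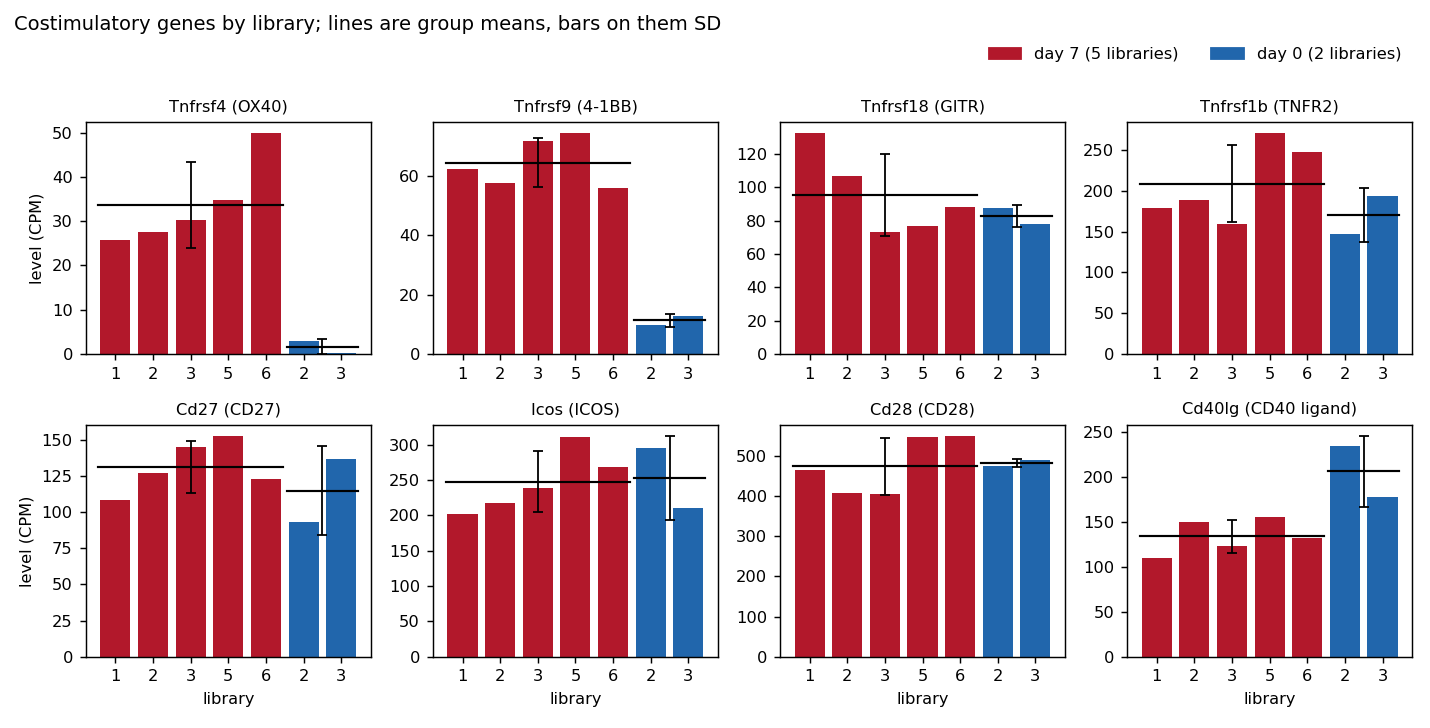
Level in CPM of each of the 8 costimulatory genes (vertical axes, each from 0) in every library (horizontal axes, named by column digit), day 7 in red and day 0 in blue, with group means as lines and SD as error bars (n = 5 and 2). The day 7 bars of Tnfrsf4 and Tnfrsf9 all stand above the day 0 bars, those of Cd40lg all stand below them, and the groups overlap for the other genes.

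Tnfrsf4 (Entrez 22163) had levels of 25.7, 27.6, 30.2, 34.9 and 49.9 CPM in the day 7 libraries, set against 2.87 and 0.214 CPM in day 0 libraries 2 and 3. The lowest day 7 library was far above both day 0 libraries. Its log2 change was 4.46 ± 0.80 (standard error), with a 95% confidence interval from 2.78 to 6.13 (edgeR adjusted p = 0.00418). The size of this change rests on few day 0 counts, 69 in library 2 and 6 in library 3, against 695 to 1104 in the day 7 libraries. Leaving out day 0 library 2 gave a log2 change of 7.27, leaving out day 0 library 3 one of 3.56, and the gene was called in each case (edgeR adjusted p = 3.09e-07 and 0.00250). The call was lost with limma-voom (log2 change 5.35, adjusted p = 0.288). Without day 7 libraries 5 and 6 the log2 change was 4.16 (edgeR adjusted p = 0.0291).

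Tnfrsf9 (Entrez 21942) had levels of 62.4, 57.6, 71.8, 74.5 and 56.1 CPM in the day 7 libraries, set against 9.81 and 12.9 CPM in the day 0 libraries. The day 7 libraries lay close together, the highest being 1.33 times the lowest, and none came near the day 0 values. The fitted log2 change was 2.51 ± 0.37, with a 95% confidence interval from 1.75 to 3.26 (edgeR adjusted p = 2.27e-04). By unadjusted p it ranked 21st among the genes tested, and Tnfrsf4 ranked 73rd. The ratio of Tnfrsf4 to Tnfrsf9 within a library was 0.412, 0.479, 0.420, 0.469 and 0.889 at day 7, and 0.292 and 0.0166 at day 0.

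Regulatory T cells carry both receptors, and the sum of their markers was higher in every day 7 library as well. The 7 regulatory T cell markers (Foxp3, Ikzf2, Ikzf4, Nrp1, Lrrc32, Capg and Gpr83) summed to 422, 385, 421, 616 and 556 CPM in the day 7 libraries, set against 207 and 232 CPM in the day 0 libraries. In day 7 libraries 5 and 6 Nrp1 stood at 211 and 172 CPM, against 51.4 to 88.3 CPM in the other day 7 libraries. Capg stood there at 129 and 123 CPM, against 32.9 to 66.3 CPM. No other of these markers, Foxp3 included, had both libraries above the other day 7 libraries. All 7 had a positive log2 change and 1, Ikzf2, was called higher. Lrrc32 and Gpr83 were each at 0 in 1 day 7 library, and Gpr83 also in 1 day 0 library. Foxp3, the lineage factor of these cells, measured 68.1, 59.4, 112, 70.0 and 45.8 CPM at day 7, against 29.9 and 30.1 CPM at day 0. The ratio of Tnfrsf4 to Foxp3 lay between 0.270 and 1.09 at day 7 and was 0.0960 and 0.00710 at day 0. The ratio of Tnfrsf9 to Foxp3 lay between 0.642 and 1.22 at day 7 and was 0.328 and 0.427 at day 0. Relative to Cd4, Tnfrsf9 stood at 0.0601 to 0.138 at day 7 and at 0.0254 and 0.0320 at day 0. Without a test, the ratios of both receptors to Foxp3 and of Tnfrsf9 to Cd4 were higher in every day 7 library than in both day 0 libraries. The part of regulatory T cells in the rise of either receptor was not tested.

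Tnfrsf4, Tnfrsf9, Tnfrsf18 and Tnfrsf1b all lie on chromosome 4. DNA before the annotated starts is shown for the genes that rose, Tnfrsf4 and Tnfrsf9, and for Tnfrsf18, the neighbour of Tnfrsf4 that did not pass the test. The sequences, from RefSeq on GRCm38.p6, plus strand, are written 5′ to 3′ and end before the first base of any RefSeq model of the gene. Of the inner start of Tnfrsf9, whose window meets an annotated exon, the 30 bases around the motif match are given. Capitals mark matches to NF-kappaB, AP-1 or CRE motifs.
Tnfrsf9, outer start, chr4:150919905-150920154: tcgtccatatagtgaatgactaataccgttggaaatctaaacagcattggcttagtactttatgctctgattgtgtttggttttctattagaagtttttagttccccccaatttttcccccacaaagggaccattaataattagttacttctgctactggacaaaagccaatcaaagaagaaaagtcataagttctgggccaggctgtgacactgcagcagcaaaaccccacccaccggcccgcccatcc
Tnfrsf9, inner start, chr4:150927947-150927976: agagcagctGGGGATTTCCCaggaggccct
Tnfrsf4, chr4:156013445-156013594: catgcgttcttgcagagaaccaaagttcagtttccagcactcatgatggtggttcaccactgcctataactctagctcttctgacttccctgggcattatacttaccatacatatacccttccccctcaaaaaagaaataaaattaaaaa
Tnfrsf18, chr4:156026072-156026321: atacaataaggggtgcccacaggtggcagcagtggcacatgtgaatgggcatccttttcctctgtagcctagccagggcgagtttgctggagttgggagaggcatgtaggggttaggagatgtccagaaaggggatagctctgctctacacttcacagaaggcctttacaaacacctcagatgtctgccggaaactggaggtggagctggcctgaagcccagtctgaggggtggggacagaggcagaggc

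Promoter windows of 300 bases (250 before and 50 after a start) were at hand for 5 of the 8 genes, Tnfrsf4, Tnfrsf9 (2 starts), Tnfrsf18, Tnfrsf1b and Cd27, and were searched on both strands. The NF-kappaB consensus matched in the window of the inner Tnfrsf9 start and in none of the other windows searched. There, 3 overlapping matches covered positions -43 to -33 counted from that start, in the capitals printed above, and an AP-1 motif (TGANTCA) lay at -15 to -9. The NF-kappaB consensus was held by 8.46% and the AP-1 motif by 7.81% of all 32851 promoter windows. The CRE letters TGACG, in 20.8% of all windows, matched in none of the windows of these genes. The NFAT core GGAAA, which is short and lay in 61.3% of all windows, matched in all of them but that of Tnfrsf1b, and 1 of its matches at the inner Tnfrsf9 start lies inside the NF-kappaB stretch. A match describes the letters only. The counts are per gene, so they do not show which Tnfrsf9 start was used. For Tnfrsf4 the nearest transcript start in GENCODE M21 lies 148 bases downstream of the RefSeq start used, outside the window searched.

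Tnfrsf18 (Entrez 21936) encodes GITR, a receptor abundant on regulatory T cells and induced on activated ones, and its start lies 12627 bases downstream of that of Tnfrsf4. It had levels of 132, 107, 73.4, 76.6 and 88.1 CPM in the day 7 libraries, set against 87.4 and 77.8 CPM in the day 0 libraries. The groups overlapped, with 3 day 7 libraries above both day 0 libraries and 2 below them. The log2 change was 0.21 ± 0.26, with a 95% confidence interval from -0.32 to 0.74 (edgeR adjusted p = 0.928). Within a library the ratio of Tnfrsf4 to Tnfrsf18 was 0.194, 0.259, 0.411, 0.455 and 0.566 at day 7, and 0.0328 and 0.00275 at day 0. The day 7 ratios were all higher, and the interval of Tnfrsf18 ended below the lower end of that of Tnfrsf4.

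The other protein-coding neighbours of Tnfrsf4 and Tnfrsf18 gave no call. Sdf4, the gene next to Tnfrsf4 on its other side, averaged 363 CPM at day 7, against 404 CPM on day 0, a log2 change of -0.16 ± 0.14 (edgeR adjusted p = 0.805). Of the 4 protein-coding genes before Tnfrsf4 and the 4 after Tnfrsf18 in RefSeq order, 6 were tested and 0 were called with edgeR. C1qtnf12 had no day 0 count and averaged 2.69 CPM at day 7. Cd28 and Icos lie on chromosome 1 with Ctla4 between them.

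**Figure D2:**
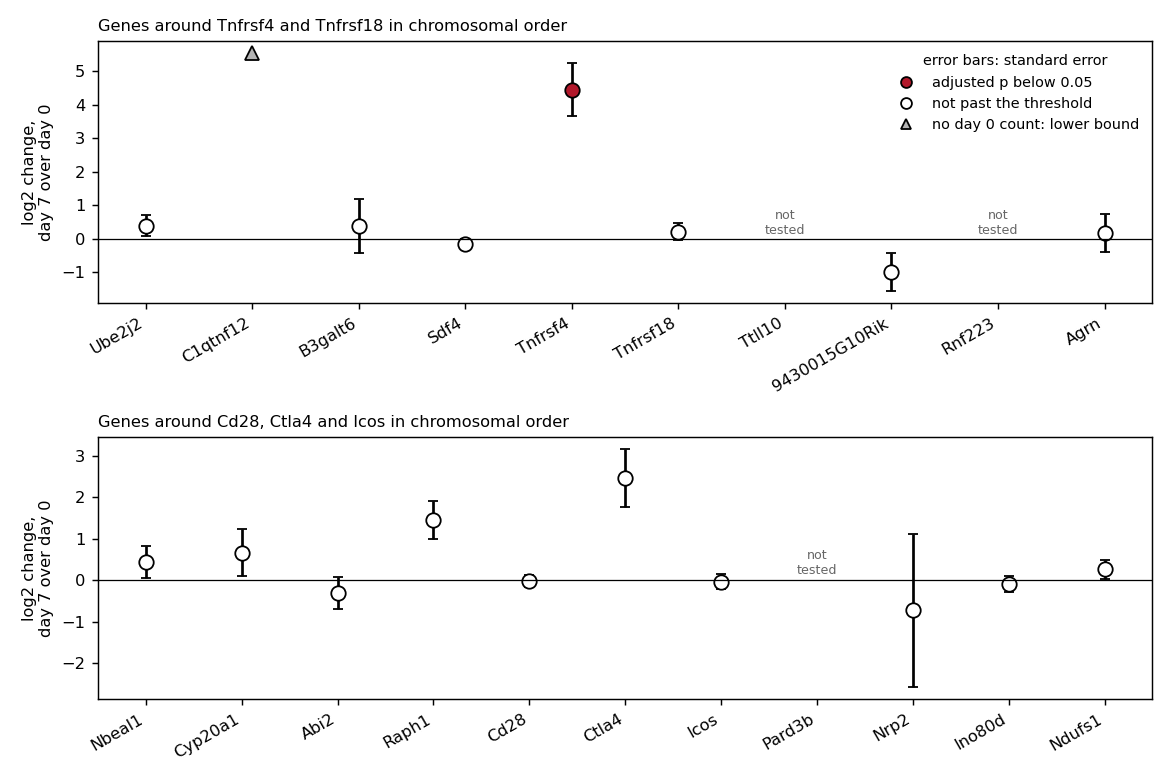
Log2 change day 7 over day 0 with standard errors (vertical axes) for protein-coding genes in RefSeq order around Tnfrsf4 and Tnfrsf18 on chromosome 4 (upper panel) and around Cd28, Ctla4 and Icos on chromosome 1 (lower panel), filled where the adjusted p was below 0.05 and as a grey triangle at a lower bound where no day 0 count was found. Tnfrsf4 alone is filled, at 4.46, beside Tnfrsf18 at 0.21, and Ctla4 at 2.46 stands between Cd28 at -0.02 and Icos at -0.03.

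Tnfrsf1b (Entrez 21938) encodes TNFR2, a TNF receptor abundant on regulatory T cells. It had levels of 179, 188, 159, 271 and 248 CPM in the day 7 libraries, set against 147 and 194 CPM in the day 0 libraries. Day 7 libraries 5 and 6 were above every other library, and the groups overlapped. Its log2 change was 0.30 ± 0.20, with a 95% confidence interval from -0.12 to 0.71 (edgeR adjusted p = 0.644). It was 0.03 without day 7 libraries 5 and 6, the libraries with the most CD8 T cell and macrophage transcripts, whose part in these values was not tested.

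Cd27 (Entrez 21940), the receptor for CD70, had levels of 108, 127, 145, 153 and 123 CPM in the day 7 libraries, set against 93.04 and 136 CPM in the day 0 libraries. Of the day 7 libraries 3 lay between the day 0 pair and 2 above it. The fitted log2 change was 0.19 ± 0.22, with a 95% confidence interval from -0.25 to 0.64 (edgeR adjusted p = 0.905). Its sign turned without day 0 library 2 (-0.055).

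Icos (Entrez 54167), the inducible costimulator, had levels of 202, 218, 238, 311 and 269 CPM in the day 7 libraries, set against 295 and 211 CPM in the day 0 libraries. The highest and the lowest of these values were both at day 7. The log2 change was -0.03 ± 0.18, with a 95% confidence interval from -0.40 to 0.33 (edgeR adjusted p = 0.9998). Its sign turned without day 7 library 1 (0.033), day 7 library 2 (0.010) or day 0 library 2 (0.23).

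Cd28 (Entrez 12487), the founding costimulatory receptor, had levels of 465, 408, 405, 546 and 549.6 CPM in the day 7 libraries, set against 475 and 490.1 CPM in the day 0 libraries. Day 7 libraries 5 and 6 were above the day 0 pair and the other day 7 libraries below it. Its log2 change was -0.02 ± 0.14, with a 95% confidence interval from -0.31 to 0.27 (edgeR adjusted p = 0.9998). That interval is the narrowest of the 8 genes. The sign turned without day 7 library 2 (0.026), day 7 library 3 (0.029) or day 0 library 3 (0.0077).

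Ctla4, the inhibitory receptor that competes with CD28 for CD80 and CD86, measured 128, 113, 132, 327 and 351 CPM at day 7, against 47.2 and 29.0 CPM at day 0. The groups did not overlap, but the gene did not pass the test (log2 change 2.46 ± 0.70, edgeR adjusted p = 0.284). Without day 7 libraries 5 and 6 it passed the test as higher, with edgeR at an adjusted p of 0.00245 and a log2 change of 1.69. With all libraries, Ctla4 was also called higher by edgeR without its robust setting. The same held in the replicate block on the column digit described at the end. Within a library the ratio of Ctla4 to Cd28 was 0.275, 0.277, 0.326, 0.599 and 0.639 at day 7, and 0.0995 and 0.0591 at day 0.

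Cd40lg (Entrez 21947) had levels of 110, 149, 123, 155 and 132 CPM in the day 7 libraries, set against 234 and 178 CPM in the day 0 libraries. The highest day 7 library stayed below the lower day 0 library. The fitted log2 change was -0.62 ± 0.19, with a 95% confidence interval from -1.02 to -0.23, at an unadjusted p of 0.00326 and an edgeR adjusted p of 0.128. DESeq2 called it lower (adjusted p = 0.0146), and without day 0 library 2 the log2 change was -0.41 (edgeR adjusted p = 0.748). CD40 ligand is a product of CD4 T cells, and the ratio of Cd40lg to Cd4 was 0.231, 0.253, 0.237, 0.170 and 0.141 at day 7, against 0.605 and 0.442 at day 0. Cd4 itself was higher in every day 7 library, at 474 to 935 CPM, than in the day 0 libraries, at 387 and 402 CPM.

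**Figure D3:**
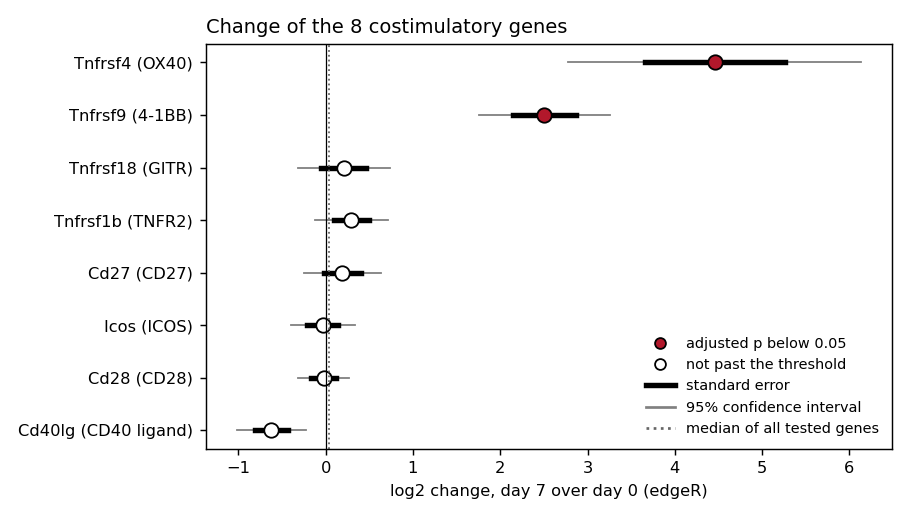
Log2 change day 7 over day 0 from edgeR for each costimulatory gene (vertical axis), with standard errors as thick lines and 95% confidence intervals as thin lines, filled where the adjusted p was below 0.05. Tnfrsf4 at 4.46 and Tnfrsf9 at 2.51 are filled, Cd40lg lies at -0.62 with an interval below 0, and the intervals of the other 5 genes include 0.

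The order of the levels was set by length-corrected values, in CPM per kilobase of merged GENCODE M21 exons, since the annotation the authors counted on is not given in the sources used here. At day 7 Cd40lg came first with 107 ± 15.0 CPM per kilobase. It was followed by Cd28 (77.5 ± 11.6), Icos (72.1 ± 12.6), Tnfrsf18 (62.6 ± 16.0), Cd27 (56.3 ± 7.63), Tnfrsf1b (54.7 ± 12.5), Tnfrsf4 (24.7 ± 7.12) and Tnfrsf9 (23.7 ± 3.05; SD, n = 5). The ranges of neighbours in this order overlapped at each step except between Tnfrsf1b and Tnfrsf4. At day 0 the first 6 genes kept this order, from Cd40lg at 165 ± 31.6 to Tnfrsf1b at 44.6 ± 8.73 CPM per kilobase, and Tnfrsf9 at 4.17 ± 0.798 came before Tnfrsf4 at 1.13 ± 1.37 (SD, n = 2). So OX40 and 4-1BB transcripts, although higher at day 7, were the lowest of the 8 on both days on this scale.

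Among the day 7 libraries, libraries 5 and 6 held the 2 highest values of 4 genes, Tnfrsf4, Tnfrsf1b, Icos and Cd28. How often this order occurs among all genes tested was not computed, so it is not shown to be particular to these genes. For Tnfrsf9 library 5 was the highest and library 6 the lowest. Tnfrsf18 had its highest value in library 1. The largest spread at day 7 was that of Tnfrsf4, whose highest library was 1.94 times its lowest, and the smallest that of Tnfrsf9.

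For each gene the 3 protein-coding genes with the most similar profile over the 7 libraries were found as the smallest root mean square difference between log2(CPM + 1) profiles, each centred on its mean, among 9335 genes with a mean of at least 5 CPM. The nearest to Tnfrsf9 were Slc25a4, an ADP/ATP carrier of mitochondria (difference 0.19), Bub1, a mitotic checkpoint kinase (0.25), and Spock2 (0.26), where the median gene differed by 1.17. The nearest to Tnfrsf4 were Cep55, which acts in the last step of cell division (0.43), the sorting nexin gene Snx9 (0.48) and Uhrf1, which maintains DNA methylation in dividing cells (0.55), against a median of 1.91. These 6 genes were all higher on average at day 7, as is implied by a measure that contains the difference between days. For Cd28 the nearest was Hnrnpc (0.05), for Icos Ptpn4 (0.07), for Cd27 Irgm2 (0.07), for Tnfrsf18 Htatsf1 (0.10), for Tnfrsf1b Gapdh (0.10) and for Cd40lg Lamtor2 (0.11), each against a median between 0.43 and 0.52. The closest pair among the 8 genes was Icos and Cd28 (0.19).

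None of the ligands and binding partners of these receptors passed the test. Of 10 listed genes Tnfsf18 and Cd70 were not analysed here, and Tnfsf4 (OX40 ligand) and Cd40 did not pass the filter on low counts. Of the 6 tested, edgeR, DESeq2 and limma-voom each called 0, and at an unadjusted p below 0.05 there were 1 higher and 1 lower. Tnfsf4 had 4 counts in all at day 7 and 67 at day 0. Tnfsf9, the 4-1BB ligand, averaged 4.70 ± 3.92 CPM at day 7 and 1.27 ± 1.79 CPM at day 0. Tnf, which binds TNFR2, averaged 62.3 ± 27.7 CPM at day 7, against 53.2 ± 2.25 CPM at day 0, with 96.5 and 84.9 CPM in day 7 libraries 5 and 6. Icosl, the ICOS ligand, stood at 34.4, 18.0, 24.8, 12.3 and 28.6 CPM at day 7, all below the 48.3 and 51.8 CPM of day 0 (log2 change -1.08 ± 0.41, edgeR adjusted p = 0.278). Cd80 had no count at day 0 and stood at 0, 7.19, 0, 14.5 and 18.0 CPM at day 7. The macrophage and monocyte markers and the CD8 T cell markers were also highest in day 7 libraries 5 and 6. In day 7 libraries 2 and 3 the macrophage and monocyte markers summed to 21.3 and 27.9 CPM. The part of these cells in the Cd80 values was not tested.

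Of 12 other receptors, from the TNF receptor family or with a costimulatory role, 0 were called with edgeR or limma-voom. At an unadjusted p below 0.05, 3 were higher and 1 lower, and DESeq2 called 1 higher (Tnfrsf21) and 1 lower (Cd226). Cd226, the receptor DNAM-1, stood at 651, 596, 642, 483 and 475 CPM at day 7, all below the 729 and 882 CPM of day 0 (log2 change -0.50 ± 0.14, edgeR adjusted p = 0.0629). Cd2, an adhesion and costimulatory receptor, measured 406, 466, 380, 540 and 635 CPM at day 7, against 408 and 413 CPM at day 0, with an overlap of the groups. Tnfrsf8, which encodes CD30 and was singled out after its values were seen, had no count in either day 0 library or in day 7 libraries 5 and 6, and had 11.3, 13.7 and 7.60 CPM in day 7 libraries 1, 2 and 3. Of the 3 receptors that share ligands with CD28 or bind HVEM, a TNF receptor family member, 1 fell and 0 rose with edgeR. Ctla4 was higher at an unadjusted p below 0.05 and called higher by DESeq2 but not by limma-voom. Cd160, which binds HVEM, fell to 116, 162, 148, 106 and 81.8 CPM at day 7, against 253 and 230 CPM at day 0 (log2 change -0.98 ± 0.21, edgeR adjusted p = 0.0125), a call lost without day 7 library 5 (adjusted p = 0.0579) or day 0 library 2 (adjusted p = 0.0968). NK cells also express Cd160, and the 6 NK cell markers summed to 406 to 663 CPM at day 7, against 1025 and 1080 CPM at day 0. Klrb1c and Klrc1 make up most of that sum and had negative log2 changes, where the other 4 had positive ones, and Fcer1g was at 0 in 1 day 0 library. The part of NK cells in the fall of Cd160, or in the lower day 7 levels of Cd226, was not tested. Btla, the other HVEM-binding receptor, overlapped between days, at 90.2 to 162 CPM at day 7, against 134 and 95.1 CPM at day 0.

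**Figure D4:**
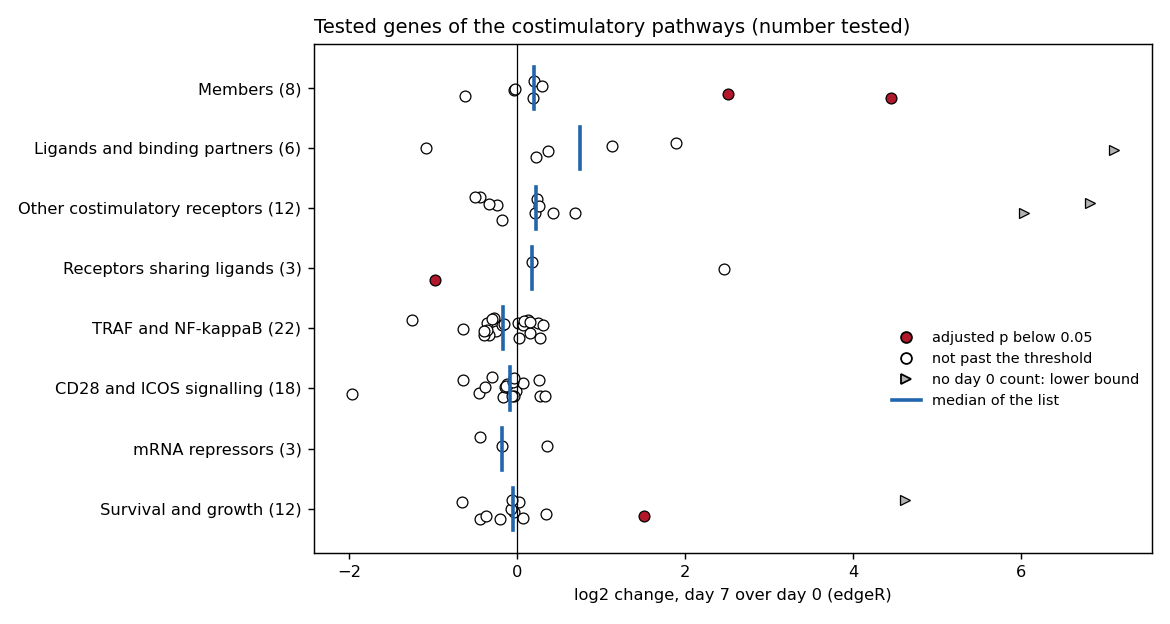
Log2 change day 7 over day 0 from edgeR (horizontal axis) of the 8 costimulatory genes and of the tested genes of 7 related lists (rows, number tested in brackets), with list medians as blue bars, filled where the adjusted p was below 0.05 and as grey triangles at lower bounds for genes with no day 0 count. Beside Tnfrsf4 and Tnfrsf9 the filled points are Birc5 to the right of 0 and Cd160 to its left.

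Downstream of the TNF receptor family, 22 genes of TRAF and NF-kappaB signalling were tested. Of these edgeR called 0, with 3 lower and none higher at an unadjusted p below 0.05 and a median log2 change of -0.17. DESeq2 called 3 lower (Tnfaip3, Cyld and Tnip1) and limma-voom 1 (Tnfaip3). Cyld and Tnip1 are named after their values were seen. Tnfaip3, which encodes A20, measured 446, 418, 474, 685 and 845 CPM at day 7, against 1627 and 1105 CPM at day 0. The groups did not overlap (log2 change -1.25 ± 0.33, edgeR adjusted p = 0.233). With day 7 libraries 5 and 6 left out it passed the test as lower, with edgeR at an adjusted p of 2.11e-06 and a log2 change of -1.63, as it did without library 6 alone (-1.43, edgeR adjusted p = 0.0198). Tnip1, a partner of A20, averaged 105 ± 15.2 CPM at day 7, against 164 ± 10.9 CPM on day 0 (edgeR adjusted p = 0.149), and Cyld, a deubiquitinase, averaged 299.9 ± 27.8 CPM at day 7, against 392 ± 21.1 CPM on day 0 (edgeR adjusted p = 0.252). Nfkbia, which encodes the inhibitor IkappaB-alpha, measured 222, 238, 277, 409 and 415 CPM at day 7, against 456 and 310 CPM at day 0, and overlapped. Traf1, Traf2, Traf3, Traf5 and Traf6, the adaptors themselves, overlapped between days as well.

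Downstream of CD28 and ICOS, 18 genes were tested, edgeR and limma-voom called 0, and 3 were lower and none higher at an unadjusted p below 0.05. DESeq2 called 3 lower, among them Pik3r1 and Pik3r2, which encode regulatory subunits of PI3-kinase and were singled out after their values were seen. The median log2 change was -0.09, and all day 7 values stood below all day 0 values for 6 of the 18 and above them for 1. Among all genes tested, 7.77% stood below in this way and 7.53% above. Lck, the kinase that starts T cell receptor signalling, stood at 690 to 813 CPM at day 7, against 762 and 739.7 CPM at day 0. Of the 3 genes whose products repress the mRNA of Icos and Tnfrsf4 or of immune activators, Rc3h1 (Roquin-1), Rc3h2 (Roquin-2) and Zc3h12a (Regnase-1), edgeR, DESeq2 and limma-voom called 0, as did an unadjusted p below 0.05. Rc3h1 stood at 107 to 148.7 CPM at day 7, below the 152 and 149.4 CPM of day 0, and Rc3h2 at 62.9 to 99.1 CPM at day 7, above the 62.7 and 57.4 CPM of day 0.

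Of 12 tested survival and growth genes known to respond to costimulation, 1 rose and 0 fell with edgeR, 1 was higher and 1 lower at an unadjusted p below 0.05, DESeq2 called 1 higher and 0 lower, and limma-voom called 0. The gene that rose was Birc5, which encodes survivin, an inhibitor of apoptosis that also acts in cell division. It measured 58.6, 55.1, 45.2, 53.1 and 93.5 CPM at day 7, against 21.98 and 20.8 CPM at day 0 (log2 change 1.52 ± 0.36, edgeR adjusted p = 0.0293). The call was lost without any 1 library except day 7 library 3, and without day 7 libraries 5 and 6 (edgeR adjusted p from 0.0540 to 0.158 without 1 library and 0.101 without both). Mcl1, a survival gene, stood at 469 to 535 CPM at day 7, below the 567 and 592 CPM of day 0, and Ccnd2, which encodes cyclin D2, at 893, 926, 896, 495 and 398 CPM at day 7, against 671 and 842 CPM at day 0. Il2, whose product is the growth factor that CD28 signals induce, had no count at day 0 or in day 7 libraries 2, 3 and 6, and had 3.44 and 3.65 CPM in day 7 libraries 1 and 5.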

How the data were processed

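Sorted CD4 T cells gave RNA by TRIzol and Illumina libraries, per the labels' protocols. CASAVA 1.8, HISAT2 2.0.5 and featureCounts 1.5.0-p3 are listed in the submitters' processing notes with no role or setting. The sources used here do not give genome build, annotation or strand use. The authors deposited raw counts per gene. Of values from 2 to 200, 72.4% to 78.1% per library were even, so low counts may stand for fewer fragments. Columns were assigned to days by name.

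Low genes were removed by filterByExpr. After TMM scaling (factors 0.988 to 1.01), 12929 genes were tested with edgeR 4.0.16 in R 4.3.3 (robust glmQLFit, glmQLFTest) under Benjamini-Hochberg adjustment. A standard error is the absolute log2 change over the square root of F. DESeq2 1.42.0 and limma-voom (limma 3.58.1) were among the alternatives. The test was also run on counts simulated from these data, and its outcome there is not reported here. For genes without day 0 counts, 3 counts over that group (0.0576 CPM) served as floor, for counting error only. CPM use TMM factors, except marker sums, which use total counts. Promoter windows and gene order are RefSeq's (GRCm38.p6).

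The members, lists, naming rule and alternatives were chosen with earlier results of these data known. Named were all 8 members and, from each list, called genes plus the 2 others of highest mean CPM, and 3 genes of most similar profile per member, of which the nearest is given for 6 members. Not every gene so named is reported here. Ratios and other list genes were picked after their values were seen.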

Additional observations from a re-analysis of the deposited data

How the results depend on the processing

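Tnfrsf9 kept its call under all 19 alternatives (log2 change 2.33 to 2.72, adjusted p up to 0.0465) and Tnfrsf4 under 16. Tnfrsf4 lost it with limma-voom without and with sample weights (log2 changes 5.35 and 5.27) and with the block below, where 1 of the 8 genes was called higher each time. DESeq2 called 1 of the 8, Cd40lg, lower. The other 5 genes were called under no alternative. With each library left out in turn the log2 change ran from -0.055 to 0.50 for Cd27, from -0.24 to 0.23 for Icos and from -0.079 to 0.029 for Cd28. Signs turned for Cd27 (-0.055), Cd28 (0.026, 0.029 and 0.0077) and Icos (0.033, 0.010 and 0.23), and none of these was called. Over all genes, 249 higher and 126 lower were called with no filter on low counts, 634 and 192 with DESeq2, 107 lower without day 7 libraries 5 and 6, 31 higher with limma-voom and 46 higher with sample weights, against 138 higher and 61 lower. With 1 library left out the counts ran from 87 to 153 higher and from 30 to 59 lower. The lowest were those without day 7 library 5 (87 higher, 40 lower) and without day 0 library 2 (30 lower) or 3 (38 lower). Where day 0 keeps 1 library, it is assumed to vary like the day 7 libraries. The causes of these differences were not tested. The median log2 change of all genes, 0.04, was 0.11 with no filter and 0.18 without either day 0 library. With 2 day 0 libraries, the intervals of the 5 uncalled receptors leave changes of either sign possible. Replicate numbers in the titles could not be matched to columns. In a replicate block on the column digit, added after seeing the data, where digits 2 and 3 occur on both days and 1 residual degree of freedom remains, 40 genes were called higher and 42 lower, and 1 of the 8 genes higher (Tnfrsf9, edgeR adjusted p = 0.0263; Tnfrsf4 4.95 on the log2 scale, adjusted p = 0.103). The difference between these digits at day 7 and that at day 0 had a correlation of -0.0040 over genes. With 1 library per digit and day, this value cannot settle whether libraries with the same digit are paired.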
